A study of Homo sapiens with 4 samples.

Results

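The genes described here are 50 listed factors of the nucleolus, covering RNA polymerase I and the proteins that turn its transcript into ribosomal subunits. They were taken by symbol from the 4 count tables and kept where 10 or more counts were found in 2 or more libraries, a rule that all 50 of the 50 passed, out of 20263 genes listed and 14122 that passed it in all. The lowest count of any of them in any library was 121. The RNA was that of HCT116, a human cell line established from a colorectal carcinoma and labelled wild type (WT), after 24 hours with 30 µM HJ-23 (2 libraries) or with 0.1% DMSO, the solvent control (2 libraries). The submitters' title calls HJ-23 a piperine derivative; the treatment field of the treated samples says HJ-25, and the name in the titles is used. All libraries are of 1 cell line at 1 dose and 1 time, and the study's text tells of 1 culture split into a treated and a solvent group, without saying whether a group's 2 libraries are separate dishes. The p-values therefore reflect only how these libraries vary, and that variation may be technical.

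Ribosomal RNA is made in the nucleolus as 1 long precursor, transcribed by RNA polymerase I with the help of UBTF, the SL1 complex and RRN3. Box C/D and box H/ACA small nucleolar ribonucleoproteins (snoRNPs) then methylate and pseudouridylate the precursor, while the small subunit processome and the large subunit assembly factors fold and cut it around ribosomal proteins. Growing and transformed epithelial cells keep this pathway active, and many of its genes are known targets of the transcription factor MYC. When assembly is disturbed, free RPL5 and RPL11 can bind MDM2 and release p53.

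Most of these genes were slightly higher in HJ-23-treated cells, none by as much as 2-fold. A log2 fold change above 0 was found for 42 of the 50 genes (84.0%, against 51.0% of all 14062 genes tested), with a median of 0.23 for the 50 and 0.0086 for all genes, HJ-23 over DMSO. In 28 genes the lower HJ-23 library was still above the higher DMSO library (56.0%, against 24.8% of all genes), and in 1, NOL9, the order was the opposite (2.0%, against 21.2%). With each of the 4 libraries left out in turn, 29 of the 50 kept a positive log2 fold change throughout and 2, NOP56 and NOL9, a negative one. With edgeR's quasi-likelihood test and Benjamini-Hochberg adjustment over all genes, 0 of the 50 passed an adjusted p of 0.05, in either direction, where 0.0853% of all genes did (0.0569% higher and 0.0284% lower), and the lowest adjusted p among the 50 was 0.233. Before adjustment, 11 of the 50 were higher at a p below 0.05 (22.0%, against 6.77% of all genes) and 0 were lower (against 5.25%). DESeq2, the other count test run, called 3 higher, MYBBP1A, NOL6 and PNO1 (6.0%, against 1.15% of the 13800 genes it adjusted over), and 0 lower (against 1.09%; 2.24% in either direction). In bulk RNA a different share of cells and a different amount of RNA per cell cannot be told apart, and CPM, each gene's count scaled to the library total with edgeR's TMM factors, are relative to the rest of the library.

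Of the 4 libraries, total counts were 29769568 to 34831207, and 15533 to 15754 genes had a count. The libraries carried 6 of 10 colorectal epithelial markers: EPCAM, CDH1, KRT8, KRT18, KRT19 and CDX2 had 13.4 CPM or more in every library, whereas KRT20, VIL1, CEACAM5 and LGALS4 had 16 counts or fewer. Of the 9 leukocyte markers, which summed to 41.7 and 51.8 CPM with HJ-23 and 41.3 and 35.2 CPM with DMSO, CD68 had 1019 to 1755 counts per library and the defining gene PTPRC had 0 in every library. Of the 7 fibroblast markers, which summed to 55.8 and 60.5 CPM with HJ-23 and 63.7 and 61.5 CPM with DMSO, COL1A1 had 1788 to 2064 counts per library and COL1A2, DCN and LUM had 0. The 5 endothelial markers summed to 1.18 and 1.63 CPM with HJ-23 and 1.58 and 1.47 CPM with DMSO. Fold changes over all genes ran with the GC content of the transcript (Spearman's rho 0.38 across 14047 genes, a description over genes that share libraries), and several of the genes below are given with a GC and length correction for that reason.

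MYBBP1A, NOL6 and PNO1, the genes called by DESeq2, also had the lowest edgeR p-values of the 50, without passing after adjustment. MYBBP1A (ENSG00000132382), a nucleolar MYB-binding protein that takes part in the control of ribosomal RNA synthesis and processing, had 45.7 and 60.8 CPM in HJ-23 replicates 1 and 2, against 29.6 and 26.5 CPM in DMSO replicates 1 and 2. Both treated libraries were above both solvent libraries, with replicate 2 the higher of the treated pair (log2 fold change 0.92, SE 0.20, adjusted p = 0.233, edgeR; DESeq2 adjusted p = 0.00937). NOL6 (ENSG00000165271), a protein of the small subunit processome, had 39.3 and 49.4 CPM in HJ-23 replicates 1 and 2, against 27.4 and 24.8 CPM in DMSO replicates 1 and 2. The order of the libraries was that of MYBBP1A (log2 fold change 0.77, SE 0.19, adjusted p = 0.275, edgeR; DESeq2 adjusted p = 0.0444). PNO1 (ENSG00000115946), which accompanies the nuclease NOB1 on maturing small subunits, had 21.5 and 24.1 CPM in HJ-23 replicates 1 and 2, against 12.7 and 13.4 CPM in DMSO replicates 1 and 2. Here the 2 libraries of each group were close to each other and the groups did not overlap (log2 fold change 0.81, SE 0.17, adjusted p = 0.233, edgeR; DESeq2 adjusted p = 0.0279). With the GC and length correction the log2 fold changes were 0.74 for MYBBP1A, 0.62 for NOL6 and 0.93 for PNO1, and the edgeR adjusted p-values were 0.093, 0.108 and 0.121.

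The promoters of these 3 genes are shown because each holds a CACGTG, the E-box that MYC and its partner MAX can bind, written in capitals. The windows run from 250 bases before to 50 bases after the annotated start, 5′ to 3′ on the gene's strand, from RefSeq (GRCh38.p14). MYBBP1A is at chr17:4555335-4555634 on the minus strand, NOL6 at chr9:33473875-33474174 on the minus strand and PNO1 at chr2:68157638-68157937 on the plus strand. Counting the start as base 1, the E-box began at base 28 in MYBBP1A, 14 in NOL6 and 10 in PNO1.
MYBBP1A: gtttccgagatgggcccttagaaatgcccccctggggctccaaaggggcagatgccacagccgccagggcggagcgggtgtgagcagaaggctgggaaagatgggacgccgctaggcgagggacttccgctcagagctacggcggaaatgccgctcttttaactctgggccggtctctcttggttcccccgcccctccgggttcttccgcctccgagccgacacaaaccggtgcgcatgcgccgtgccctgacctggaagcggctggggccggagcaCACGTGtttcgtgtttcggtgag
NOL6: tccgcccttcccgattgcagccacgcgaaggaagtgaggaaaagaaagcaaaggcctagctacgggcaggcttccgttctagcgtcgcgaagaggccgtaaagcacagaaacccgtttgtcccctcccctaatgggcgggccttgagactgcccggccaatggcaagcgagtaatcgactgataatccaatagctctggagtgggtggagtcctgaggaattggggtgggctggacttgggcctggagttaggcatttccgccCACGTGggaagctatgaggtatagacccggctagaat
PNO1: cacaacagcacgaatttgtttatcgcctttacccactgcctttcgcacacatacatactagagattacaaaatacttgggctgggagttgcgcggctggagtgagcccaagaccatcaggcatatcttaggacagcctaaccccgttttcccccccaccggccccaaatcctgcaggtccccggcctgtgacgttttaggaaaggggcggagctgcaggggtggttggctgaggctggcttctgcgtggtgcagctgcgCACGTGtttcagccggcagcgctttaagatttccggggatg

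The same 6 letters were searched in the windows of all genes; CACGTG reads the same on both strands, and no other motif was searched with it. Of the 50 genes, 43 were matched in the promoter table, and 19 of these (44.2%) held an E-box, against 12.3% of the 11135 tested genes that were matched and 8.77% of all 27305 genes in the table. Downstream of the start, within the last 50 bases of the window, it was found in 12 of the 43 (27.9%), against 1.4% of the tested genes. The other 9 genes of those 12 are given here with 10 bases either side of the E-box, fewer where the window ends, to show its setting, with the window's place and strand in GRCh38.p14.
BYSL, window chr6:41921249-41921548 on the plus strand: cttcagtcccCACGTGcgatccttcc
FBL, window chr19:39846330-39846629 on the minus strand: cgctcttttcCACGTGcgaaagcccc
GAR1, window chr4:109815512-109815811 on the plus strand: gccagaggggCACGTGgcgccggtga
GNL3, window chr3:52685782-52686081 on the plus strand: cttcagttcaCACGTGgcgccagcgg
LTV1, window chr6:143843088-143843387 on the plus strand: cctggggctgCACGTGtggtgaggcc
NOP14, window chr4:2963357-2963656 on the minus strand: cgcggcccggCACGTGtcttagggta
NOP2, window chr12:6568242-6568541 on the minus strand: gtccggattgCACGTGgagggccgc
PES1, window chr22:30591861-30592160 on the minus strand: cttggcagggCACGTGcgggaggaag
WDR43, window chr2:28894417-28894716 on the plus strand: cacggacgaaCACGTGgctgcagcgg

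The E-box was present in genes with and without overlap between the groups. FBL, GNL3 and WDR43 hold one and had overlapping groups, whereas PNO1, BYSL and LTV1 hold one and did not overlap. Over the 19 genes with an E-box the median log2 fold change was 0.33 (from -0.018 to 0.92), and over the 24 matched genes without one it was 0.16 (from -0.22 to 0.81). A match of letters says nothing of binding, and occupancy was not measured. MYC itself (ENSG00000136997) had 12.7 and 5.99 CPM in HJ-23 replicates 1 and 2, against 17.7 and 13.7 CPM in DMSO replicates 1 and 2. Both treated libraries were below both solvent libraries, and the difference did not pass the test (log2 fold change -0.75, SE 0.37, adjusted p = 0.469, edgeR). Leaving out HJ-23 replicate 2 gave a log2 fold change of -0.33, and leaving out HJ-23 replicate 1 gave -1.41.

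**Figure D1:**
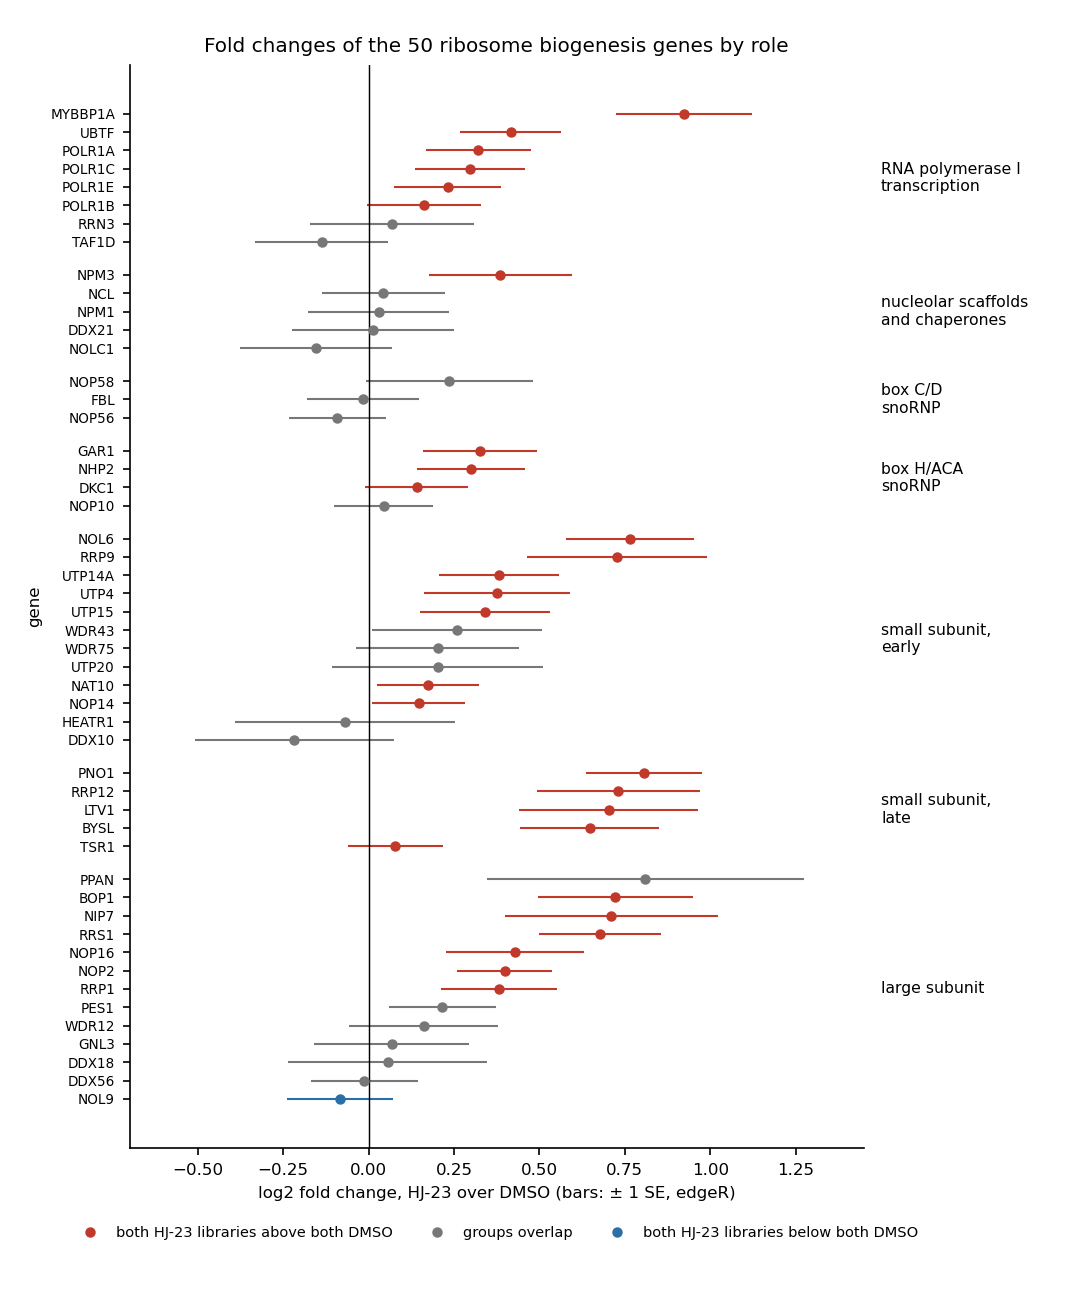
Log2 fold change (HJ-23 over DMSO, horizontal axis) of each of the 50 genes (vertical axis) grouped by role, as points with bars of 1 SE from edgeR; red marks genes whose HJ-23 libraries both exceed the DMSO libraries, blue the opposite and grey overlapping groups. Of the 50 points, 42 lie above 0, and the late small subunit factors have the highest median (0.70) while the box C/D snoRNP proteins lie around 0 (median -0.018).

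The class of RNA polymerase I and its initiation factors also took in MYBBP1A, its highest member at 0.92. Both treated libraries were above both solvent libraries for 6 of its 8 genes, against 24.8% of all genes. The median log2 fold change was 0.26, and none was past the edgeR threshold. POLR1A (ENSG00000068654), the largest catalytic subunit, had 54.7 and 58.7 CPM in HJ-23 replicates 1 and 2, against 47.7 and 43.0 CPM in DMSO replicates 1 and 2. The groups did not overlap and the difference was small (log2 fold change 0.32, SE 0.15, adjusted p = 0.458, edgeR). POLR1B (ENSG00000125630), the second catalytic subunit, had 24.5 and 23.9 CPM in HJ-23 replicates 1 and 2, against 20.1 and 23.1 CPM in DMSO replicates 1 and 2. DMSO replicate 1 was low and the other 3 libraries were close together (log2 fold change 0.16, SE 0.17, adjusted p = 0.717, edgeR). POLR1C, shared with RNA polymerase III, and POLR1E, a subunit that acts in initiation, had log2 fold changes of 0.30 and 0.23, and the groups did not overlap for either. With the GC and length correction the log2 fold change of POLR1A was 0.56 (edgeR adjusted p = 0.134), over 1.5 times the uncorrected value.

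UBTF (ENSG00000108312), the HMG-box protein that keeps ribosomal DNA open for transcription, had 83.2 and 96.2 CPM in HJ-23 replicates 1 and 2, against 68.6 and 65.9 CPM in DMSO replicates 1 and 2. Both treated libraries were above both solvent libraries (log2 fold change 0.42, SE 0.15, adjusted p = 0.371, edgeR; unadjusted p = 0.0302). RRN3 (ENSG00000085721), the growth-regulated factor that brings the polymerase to the promoter, had 59.0 and 43.8 CPM in HJ-23 replicates 1 and 2, against 40.6 and 57.5 CPM in DMSO replicates 1 and 2. The groups overlapped fully, HJ-23 replicate 1 and DMSO replicate 2 being the high pair (log2 fold change 0.068, SE 0.24, adjusted p = 0.924, edgeR). TAF1D (ENSG00000166012), a subunit of SL1 whose introns host small nucleolar RNAs, had 213 and 149 CPM in HJ-23 replicates 1 and 2, against 197 and 200.4 CPM in DMSO replicates 1 and 2. HJ-23 replicate 2 was low and the other 3 libraries were alike (log2 fold change -0.14, SE 0.20, adjusted p = 0.799, edgeR). The 95% interval of the log2 fold change was -0.52 to 0.65 for RRN3 and -0.62 to 0.34 for TAF1D. RRN3 has near-identical copies in the genome, and the authors' counting may have split its reads.

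Of the 5 scaffold proteins and chaperones, 4 overlapped between the groups, and the median log2 fold change was 0.029. In 1, NPM3, both treated libraries were above both solvent libraries, where 24.8% of all genes were. NPM1 (ENSG00000181163), nucleophosmin, the histone-binding chaperone of the granular component, was the most abundant of the 50 and had 1229.8 and 850.2 CPM in HJ-23 replicates 1 and 2, against 956 and 1082 CPM in DMSO replicates 1 and 2. The treated libraries lay on either side of the solvent libraries (log2 fold change 0.029, SE 0.21, adjusted p = 0.965, edgeR). NCL (ENSG00000115053), nucleolin, an RNA-binding protein of the same compartment, had 456 and 377 CPM in HJ-23 replicates 1 and 2, against 355 and 454 CPM in DMSO replicates 1 and 2. The groups overlapped fully, with HJ-23 replicate 1 and DMSO replicate 2 alike at the top (log2 fold change 0.042, SE 0.18, adjusted p = 0.94, edgeR). DDX21, an RNA helicase that binds ribosomal DNA and snoRNAs, had the same 2 libraries at the top and a log2 fold change of 0.013. NOLC1 (ENSG00000166197), the snoRNP chaperone Nopp140, had 138 and 96.8 CPM in HJ-23 replicates 1 and 2, against 115 and 147 CPM in DMSO replicates 1 and 2, again with overlapping groups (log2 fold change -0.15, SE 0.22, adjusted p = 0.804, edgeR). NPM3 (ENSG00000107833), a smaller relative of nucleophosmin, had 74.9 and 108 CPM in HJ-23 replicates 1 and 2, against 74.2 and 66.2 CPM in DMSO replicates 1 and 2. HJ-23 replicate 1 was level with DMSO replicate 1 and replicate 2 was high, so the groups were parted by a small margin (log2 fold change 0.39, SE 0.21, adjusted p = 0.492, edgeR; 0.070 without HJ-23 replicate 2). The median of these 5 genes became -0.28 when HJ-23 replicate 1 was left out, -0.12 when DMSO replicate 1 was, 0.15 when HJ-23 replicate 2 was and 0.21 when DMSO replicate 2 was, and it was 0.11 with the GC and length correction.

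The box C/D snoRNP proteins, which carry out 2′-O-methylation, overlapped between the groups in all 3 cases, as did 7593 of all 14062 genes tested. FBL (ENSG00000105202), fibrillarin, the methyltransferase, had 179 and 229.9 CPM in HJ-23 replicates 1 and 2, against 208 and 206 CPM in DMSO replicates 1 and 2. The solvent libraries fell between the treated ones (log2 fold change -0.018, SE 0.16, adjusted p = 0.973, edgeR). NOP56 (ENSG00000101361), a core scaffold protein, had 89.9 and 83.0 CPM in HJ-23 replicates 1 and 2, against 87.6 and 96.6 CPM in DMSO replicates 1 and 2; only DMSO replicate 2 lay clear of the other 3 libraries (log2 fold change -0.091, SE 0.14, adjusted p = 0.817, edgeR). NOP58 (ENSG00000055044), its partner, had 64.3 and 49.6 CPM in HJ-23 replicates 1 and 2, against 38.8 and 57.9 CPM in DMSO replicates 1 and 2. DMSO replicate 1 was the low library (log2 fold change 0.24, SE 0.24, adjusted p = 0.717, edgeR).

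The box H/ACA proteins, which guide pseudouridylation and also accompany telomerase RNA, had a median log2 fold change of 0.22. Positive values were found for 4 of 4, where 51.0% of all genes had one. DKC1 (ENSG00000130826), dyskerin, the pseudouridine synthase, had 64.4 and 62.4 CPM in HJ-23 replicates 1 and 2, against 53.8 and 61.3 CPM in DMSO replicates 1 and 2. The lower treated library was just above the higher solvent library (log2 fold change 0.14, SE 0.15, adjusted p = 0.726, edgeR). GAR1 (ENSG00000109534), which binds dyskerin, had 29.3 and 25.8 CPM in HJ-23 replicates 1 and 2, against 22.8 and 21.2 CPM in DMSO replicates 1 and 2, without overlap (log2 fold change 0.33, SE 0.17, adjusted p = 0.476, edgeR). NHP2 had a log2 fold change of 0.30, also without overlap; it shares 414 exonic bases with RMND5B on the opposite strand, which had 23.7 and 26.7 CPM with HJ-23 and 15.5 and 13.98 CPM with DMSO. NOP10 (ENSG00000182117), the smallest subunit, had 86.4 and 98.7 CPM in HJ-23 replicates 1 and 2, against 92.7 and 86.9 CPM in DMSO replicates 1 and 2. Its groups overlapped and its interval was narrow around 0, -0.31 to 0.40 (log2 fold change 0.044, SE 0.14, adjusted p = 0.92, edgeR).

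Of the early small subunit factors, 10 of 12 had positive log2 fold changes, where 51.0% of all genes did. In 7, NOL6 among them, both treated libraries were above both solvent libraries, where 24.8% of all genes were. The median of the 12 was 0.23, and it was 0.38 with the GC and length correction. It was 0.11 when DMSO replicate 1 was left out, 0.45 when DMSO replicate 2 was and 0.41 when HJ-23 replicate 2 was. RRP9, a protein of the U3 snoRNP, was at 6.86 ± 2.01 CPM with HJ-23 and 4.14 ± 0.0116 CPM with DMSO (mean ± SD, n = 2 each) and had a log2 fold change of 0.73 (SE 0.26, edgeR adjusted p = 0.377). UTP14A, UTP4 and UTP15 had log2 fold changes of 0.38, 0.38 and 0.34, with no overlap between the groups. NAT10, which acetylates ribosomal RNA, and NOP14 had smaller values of 0.17 and 0.15, also without overlap. WDR43, WDR75, UTP20 and HEATR1, of which HEATR1 also links processing to transcription, had groups that overlapped, each with HJ-23 replicate 1 and DMSO replicate 2 as the high pair. DDX10 (ENSG00000178105), a helicase, had the lowest log2 fold change of the 50 without the GC and length correction, with 18.2 and 13.9 CPM in HJ-23 replicates 1 and 2, against 13.9 and 23.5 CPM in DMSO replicates 1 and 2. DMSO replicate 2 was the highest library and HJ-23 replicate 1 the next, so the groups overlapped (log2 fold change -0.22, SE 0.29, adjusted p = 0.784, edgeR). With the correction DDX10 was at -0.0031 and the lowest were NOP56 at -0.22 and FBL at -0.20, and without DMSO replicate 2 DDX10 was at 0.18. HEATR1 was at -0.070 without the correction and 0.19 with it. HEATR1 shares 2095 exonic bases with LGALS8 on the opposite strand, which had 25.1 and 15.4 CPM in HJ-23 replicates 1 and 2 and 23.2 and 66.99 CPM in DMSO replicates 1 and 2; no source used here gives the strand setting of the counting, and reads of the pair cannot be told apart. The same holds for NHP2 with RMND5B, TSR1 with SRR (1146 bases) and NIP7 with COG8 (957 bases).

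All 5 listed late small subunit factors were above the solvent range in both treated libraries, where 24.8% of all genes were. Their median log2 fold change of 0.70 was the highest of the 7 classes. Late factors in the further small subunit list did not all share this. NOB1 and RIOK1 were without overlap, at 0.15 and 0.44. RIOK2, RIOK3, BUD23 and TRMT112 had overlapping groups, at 0.28, -0.076, 0.14 and -0.16. Beside PNO1, RRP12, which acts in export of pre-ribosomes, was at 9.89 ± 2.54 CPM with HJ-23 and 5.95 ± 0.183 CPM with DMSO (mean ± SD, n = 2 each), a log2 fold change of 0.73. BYSL, bystin, needed for small subunit processing, was at 25.8 ± 5.48 CPM with HJ-23 and 16.5 ± 0.0961 CPM with DMSO, a log2 fold change of 0.65. LTV1, which is removed at the end of small subunit assembly, was at 27.4 ± 6.14 CPM with HJ-23 and 16.8 ± 4.56 CPM with DMSO, a log2 fold change of 0.70. The 4 genes PNO1, RRP12, BYSL and LTV1 had unadjusted edgeR p-values of 0.00317, 0.0219, 0.0189 and 0.0367, and adjusted ones of 0.233 to 0.389. TSR1 (ENSG00000167721), a GTPase-like factor that blocks early joining of the subunits, differed little from DMSO, with 69.4 and 66.0 CPM in HJ-23 replicates 1 and 2, against 63.3 and 64.9 CPM in DMSO replicates 1 and 2 (log2 fold change 0.078, SE 0.14, adjusted p = 0.845, edgeR). With 1 library left out at a time the median of the 5 was lowest, at 0.42, when HJ-23 replicate 2 was omitted and highest, at 0.83, when HJ-23 replicate 1 was.

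The large subunit factors had 11 of 13 positive log2 fold changes, where 51.0% of all genes had one, and a median of 0.38. RRS1, which helps to insert the 5S particle, was at 21.4 ± 2.21 CPM with HJ-23 and 13.4 ± 1.00 CPM with DMSO (mean ± SD, n = 2 each; log2 fold change 0.68, SE 0.18, edgeR adjusted p = 0.299). NIP7, a factor bound to early large subunits, was at 23.7 ± 1.33 CPM with HJ-23 and 14.5 ± 6.36 CPM with DMSO (log2 fold change 0.71, SE 0.31), and its 2 DMSO libraries differed by nearly as much as the groups did. NOP2, which methylates ribosomal RNA, had 73.1 and 76.5 CPM with HJ-23 and 56.1 and 57.4 CPM with DMSO, without overlap and with little spread (log2 fold change 0.40, SE 0.14, edgeR adjusted p = 0.368). NOP16 and RRP1 were also without overlap, at 0.43 and 0.38. GNL3, nucleostemin, and the helicases DDX18 and DDX56 had log2 fold changes of 0.067, 0.056 and -0.013, with overlapping groups. NOL9 (ENSG00000162408), the kinase that acts after the cut in the second internal spacer, had 33.1 and 31.6 CPM in HJ-23 replicates 1 and 2, against 34.0 and 34.5 CPM in DMSO replicates 1 and 2. It was the only one of the 50 with both treated libraries below both solvent libraries, by a small margin (log2 fold change -0.083, SE 0.16, adjusted p = 0.854, edgeR). With the GC and length correction its log2 fold change was 0.032, above 0.

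The 3 proteins of the PeBoW complex, which matures the large subunit RNA, were not alike in these libraries. BOP1 had 116 and 177 CPM with HJ-23 and 95.5 and 82.4 CPM with DMSO, with no overlap and HJ-23 replicate 2 far above replicate 1 (log2 fold change 0.72, SE 0.23, edgeR adjusted p = 0.339). PES1 had 104 and 126 CPM with HJ-23 and 104 and 93.6 CPM with DMSO, and its first library of each group was level (0.22, SE 0.16). WDR12 had 53.5 and 41.96 CPM with HJ-23 and 36.3 and 49.1 CPM with DMSO, with overlapping groups (0.16, SE 0.22). With the GC and length correction the values were 0.47 for BOP1, 0.047 for PES1 and 0.42 for WDR12, and differences between the members were not tested.

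PPAN, a large subunit factor, had the largest SE of the 50 genes, and it shares exons with another gene record. PPAN (ENSG00000130810) had 20.8 and 7.90 CPM in HJ-23 replicates 1 and 2, against 7.05 and 9.36 CPM in DMSO replicates 1 and 2, so HJ-23 replicate 1 alone was high (log2 fold change 0.81, SE 0.46, adjusted p = 0.516, edgeR; -0.073 without HJ-23 replicate 1). The read-through gene PPAN-P2RY11 shares 1447 exonic bases with it on the same strand, and had 16.9 and 30.1 CPM in HJ-23 replicates 1 and 2 and 20.95 and 18.35 CPM in DMSO replicates 1 and 2. HJ-23 replicate 2, low in PPAN, was high in the read-through gene. Summed, the pair had 37.8 and 38.0 CPM with HJ-23 and 28.0 and 27.7 CPM with DMSO, and the replicates of each group were nearly level. The sum, chosen after the values were seen, had a log2 fold change of 0.44 (SE 0.15, edgeR adjusted p = 0.369, unadjusted p = 0.0286).

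**Figure D2:**
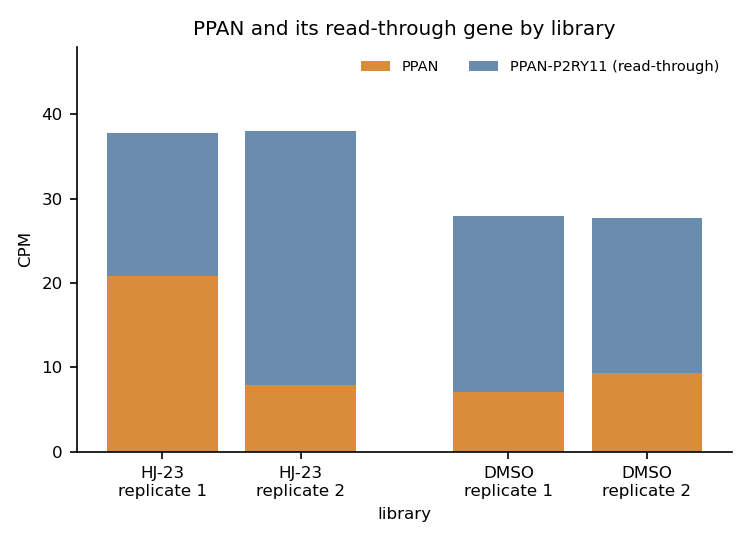
Stacked bars of PPAN (orange) and the read-through gene PPAN-P2RY11 (blue) in CPM (vertical axis, from 0) in each of the 4 libraries. The division between the pair differs most between the HJ-23 libraries, while the totals are 37.8 and 38.0 CPM with HJ-23 and 28.0 and 27.7 CPM with DMSO.

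How the libraries of a group differed from each other followed the GC content of the transcript. Split at the median of the 50 genes, 48.4% GC, 21 of the 25 genes below it were higher in HJ-23 replicate 1 than in replicate 2, and 22 were higher in DMSO replicate 2 than in replicate 1. Of the 25 at or above it, 6 were higher in HJ-23 replicate 1 than in replicate 2 and 10 were higher in DMSO replicate 2 than in replicate 1. The same order of libraries was found over the whole table: among all tested genes below 48.4% GC, 80.3% were higher in HJ-23 replicate 1 and 67.4% higher in DMSO replicate 2, against 24.1% and 35.9% of those at or above it. Both treated libraries lay above both solvent libraries for 9 of the 25 genes below the split (36.0%, against 12.4% of all genes there) and for 19 of the 25 at or above it (76.0%, against 35.2% of all genes there), so all genes differed in the same direction across the split.

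**Figure D3:**
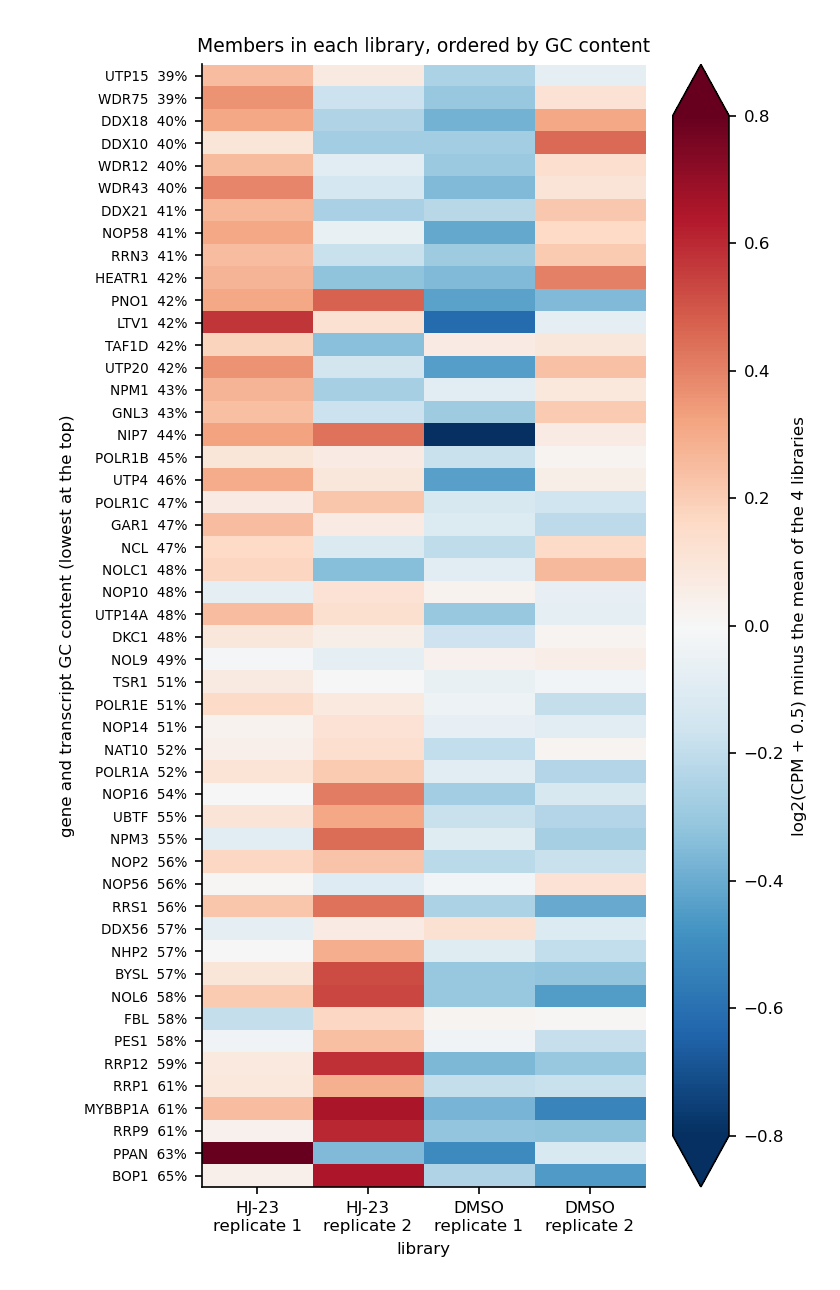
Level of each of the 50 genes in each library, as log2(CPM + 0.5) minus the mean of the 4 libraries (colour), with genes in rows from the lowest transcript GC content at the top to the highest at the bottom. In the upper rows HJ-23 replicate 1 and DMSO replicate 2 tend to be red together, and in the lower rows HJ-23 replicate 2 is the reddest column while both DMSO columns are blue.

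The medians of the 50 genes lay above those of all genes on both sides of the split. Below the split the median log2 fold change was 0.16 for the 25 genes, against -0.11 for the 6390 tested genes of that range. At or above it the median was 0.38 for the 25 genes, against 0.12 for the 7657 tested genes. With the GC and length correction, which takes such a trend out of each library, the medians of the 50 genes were 0.30 below the split and 0.24 above it. For all genes they were 0.013 and -0.0029. Corrected values were positive for 44 of the 50 genes. Over all tested genes they were positive for 3315 of the 6390 below the split and 3798 of the 7657 at or above it. Corrected in this way 0 of the 50 passed, where 0.27% of all genes did (0.178% higher and 0.0924% lower).

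**Figure D4:**
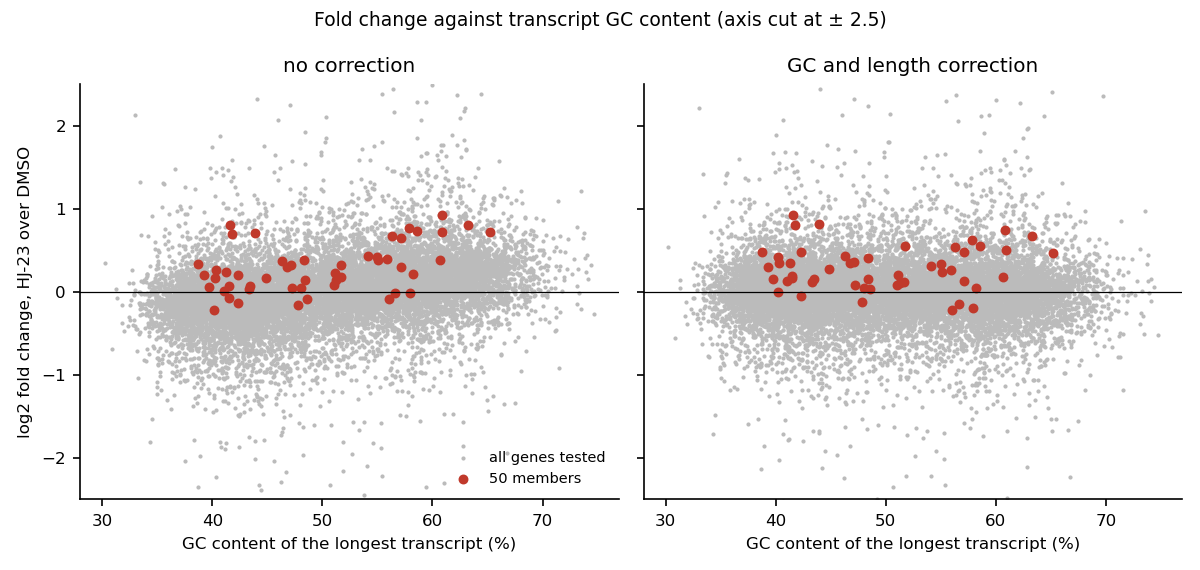
Log2 fold change (HJ-23 over DMSO, vertical axis) against the GC content of the longest transcript in percent (horizontal axis), without (left) and with (right) the GC and length correction; grey points are all genes tested and red points the 50 genes. The grey cloud tilts upward on the left and is level on the right, and the red points lie mostly above 0 in both.

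Per transcript length the 50 genes kept nearly the same order in both groups. In TPM, a scale corrected for transcript length and library total, NPM1 led with 1343 ± 412 TPM with HJ-23 and 1269 ± 102 TPM with DMSO (mean ± SD, n = 2 each). FBL followed with 396 ± 49.5 TPM with HJ-23 and 391 ± 5.33 TPM with DMSO, and NOP10 with 376 ± 16.1 TPM with HJ-23 and 355 ± 18.6 TPM with DMSO; the values of these 2 genes overlapped in the treated libraries and not in the solvent libraries. The low end held UTP20, a very large scaffold protein, with 2.54 ± 0.778 TPM with HJ-23 and 2.13 ± 0.712 TPM with DMSO. The catalytic subunits stood near the low end too, POLR1A with 10.0 ± 0.00877 TPM with HJ-23 and 7.79 ± 0.619 TPM with DMSO and POLR1B with 10.8 ± 0.727 TPM with HJ-23 and 9.35 ± 0.867 TPM with DMSO. Such ranks depend on the length taken, that of the longest annotated transcript, 12749 bases for POLR1A and 5059 for POLR1B. Among the next genes NCL ranked 6 with HJ-23 and 4 with DMSO, and NHP2 ranked 4 with HJ-23 and 6 with DMSO. Their values overlapped in both groups.

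**Figure D5:**
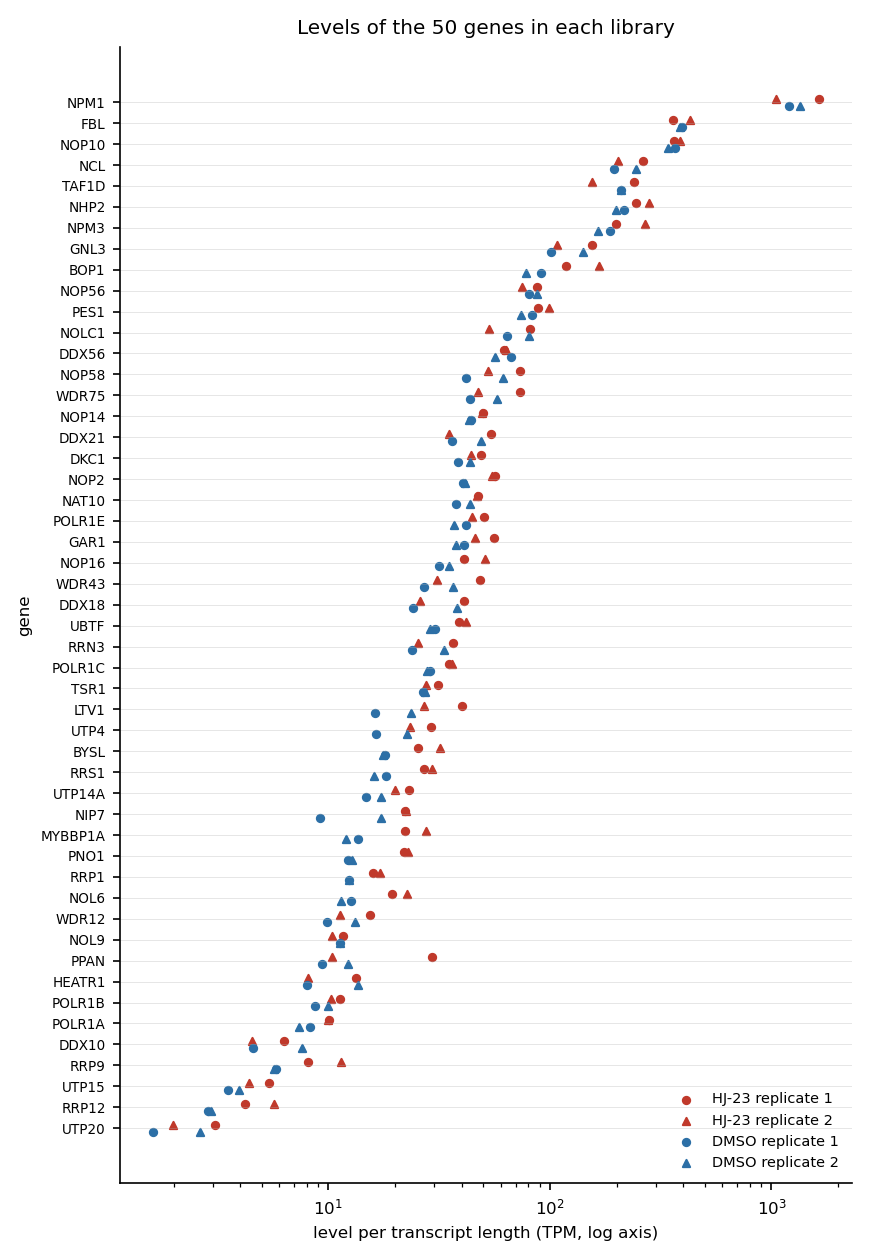
Level of each of the 50 genes in TPM (horizontal axis, log scale) in each library, red for HJ-23 and blue for DMSO, circles for replicate 1 and triangles for replicate 2, ordered by the DMSO mean. NPM1 lies between 1051.5 and 1634 TPM and UTP20 between 1.62 and 3.09 TPM, and red and blue symbols mix for most genes near the top.

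The other genes of the pathway, 122 in 5 further lists, had a smaller median log2 fold change than the 50 and a wider range, and the difference between them was not tested. A positive log2 fold change was found for 79 of the 122 (64.8%, against 51.0% of all genes), with a median of 0.14 (from -1.02 to 1.25) against 0.23 (from -0.22 to 0.92) for the 50. Before adjustment, 15 were higher at an edgeR p below 0.05 (12.3%, against 6.77% of all genes). At that p 3 of the 122 were lower, MDN1, SENP3 and DDX24, where 5.25% of all genes were. With edgeR 0 passed the adjusted threshold, where 0.0853% of all genes did. DESeq2 called 1 of the 122, DDX24, which was lower, where it called 1.09% of all genes lower. Among 46 further large subunit genes the median was 0.22, from SENP3, a SUMO protease of the nucleolus, at -1.02 to PAK1IP1, a WD-repeat factor, at 0.74. DDX24, a helicase, had 55.2 and 64.6 CPM with HJ-23 and 109.9 and 109 CPM with DMSO, with no overlap (log2 fold change -0.87, SE 0.15, edgeR adjusted p = 0.196; DESeq2 adjusted p = 0.000708). SENP3 had 14.9 and 15.8 CPM with HJ-23 and 43.6 and 18.7 CPM with DMSO, so DMSO replicate 1 alone was high, and the log2 fold change was -0.28 without it.

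Among 42 further small subunit genes the median was 0.15, from the GTPase BMS1 at -0.55 to RRP7A at 0.62. The further polymerase I genes had a median of -0.062 over 10 members, from TBP, the TATA-binding protein that SL1 contains, at -0.22 to POLR1G, a polymerase I subunit, at 1.25. POLR1G had 23.4 and 24.0 CPM with HJ-23 and 3.798 and 16.1 CPM with DMSO, with DMSO replicate 1 very low (SE 0.67, edgeR adjusted p = 0.506); the log2 fold change was 0.56 without that library. The RNA exosome, which trims ribosomal RNA ends, had a median of 0.016 over 14 genes, from C1D at -0.37 to EXOSC5 at 0.80. The snoRNP assembly factors had a median of 0.19 over 10, from RPAP3 at -0.27 to NAF1 at 0.38. None of these passed the edgeR threshold.

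Of the genes that link ribosome assembly to p53, RPL5 had 1132 and 1094 CPM with HJ-23 and 1176 and 1246 CPM with DMSO and RPL11 1114 and 1165 CPM with HJ-23 and 1100.2 and 1256 CPM with DMSO. For RPL5 both treated libraries were below both solvent libraries, as for 21.2% of all genes, and for RPL11 the groups overlapped. Their log2 fold changes were small, -0.12 and -0.048 (SE 0.13 and 0.14, adjusted p = 0.729 and 0.909, edgeR). MDM2, the ligase that holds p53 down, had 79.8 and 39.2 CPM with HJ-23 and 146 and 55.9 CPM with DMSO, and the 2 DMSO libraries differed from each other by more than the groups did (log2 fold change -0.76, SE 0.58, adjusted p = 0.629, edgeR). Leaving out DMSO replicate 1 gave 0.089, leaving out HJ-23 replicate 1 gave -1.39, and leaving out DMSO replicate 2 gave -1.32, with 1 DMSO library then left, the one with the high value, and the spread taken from the HJ-23 libraries alone (edgeR adjusted p = 0.00198).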

How the data were processed

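RNA-seq of HCT116 cells gave 4 libraries. The deposited values are raw counts per Ensembl gene, all whole numbers. Per the submitters' processing notes the tools were HISAT2, RSEM, Trimmomatic, FastQC and bedtools, with no roles; no source used here gives versions, build, annotation or strand setting. Between 69.6% and 72.3% of the counts from 1 to 8 were even in each library, against 49.7% to 50.8% of those above 50, so both mates of a pair may have been counted, and the fits were also tested with counts halved. Symbols came from a gene name table (20148 IDs, 76 more from GENCODE 29, 39 unmatched). TPM were computed from the longest annotated transcript, and GC content from the same transcript.

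Counts were tested with edgeR 4.0.16 (R 4.3.3; TMM, filterByExpr, robust quasi-likelihood F-test, Benjamini-Hochberg over 14062 genes, threshold 0.05; 2 residual degrees of freedom). DESeq2 1.42.0, other scalings and filters, a GC and length correction (splines of 5 degrees of freedom), the replicate number as a block and leaving out each library were alternatives. The fits were tested on simulated data. Values in every library are given for members called by edgeR, DESeq2 or the corrected fit, the highest and lowest log2 fold change of each class, and NCL, NPM1, FBL, DKC1, POLR1A, POLR1B, UBTF and RRN3; in further lists the extremes are named, with RPL5, RPL11, MDM2 and MYC. DDX24, PPAN-P2RY11 and other genes with values were chosen after their values were seen. Members and lists were chosen with earlier results of these data known. Of the 50 genes, 16 overlap another gene's exons, 8 by 300 or more bases, and reads there are uncertain, as are those of NPM1, which has many processed copies.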

Additional observations from a re-analysis of the deposited data

How the results depend on the processing

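Over all genes edgeR called 12; it called 31 without a filter, 0 with a mean of at least 10 CPM (1254 at an unadjusted p below 0.05), 38 with the GC and length correction, 294 with the replicate block and 0 with the block and that correction (1635 unadjusted), and DESeq2 called 309. With 1 library left out, the lone library of that group being assumed to vary like the other group's, the count ran from 0 to 273: leaving out HJ-23 replicate 1 gave 0 (3501 unadjusted), HJ-23 replicate 2 gave 0 (1377 unadjusted), DMSO replicate 1 gave 273 and DMSO replicate 2 gave 157. Of the 50 genes DESeq2 called 3, and the block, the GC and length correction and leaving out any 1 library called 0. Same-numbered libraries deviated in opposite directions (correlation -0.182) and cross-numbered ones in the same direction (0.182). With 2 libraries per group these values mirror each other by construction, so they cannot show whether the numbers pair the libraries. Pairing crosswise, added after seeing the data, called 966 genes and 7 of the 50.

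The median log2 fold change of the 50 was 0.15 to 0.33 with 1 library left out. The polymerase I median was 0.25 with RLE size factors and with DESeq2, 0.29 with library totals, 0.30 with the GC and length correction, alone or with the block, and 0.24 to 0.31 with 1 library left out. With the correction, without and with the block, it was -0.20 and -0.20 for box C/D, 0.38 and 0.38 for early small subunit, 0.14 and 0.15 for box H/ACA, 0.27 and 0.27 for large subunit, 0.18 and 0.19 for further small subunit and 0.10 and 0.10 for snoRNP assembly genes, and 0.074 for the exosome without the block. With 1 library left out the ranges were -0.28 to 0.21 for scaffolds, 0.13 to 0.22 for box H/ACA, 0.11 to 0.45 for early and 0.42 to 0.83 for late small subunit, 0.28 to 0.39 for large subunit, 0.0998 to 0.15 for further small subunit, 0.13 to 0.23 for further large subunit, -0.044 to 0.10 for exosome and -0.013 to 0.21 for snoRNP assembly genes. In the further polymerase I list 1 gene was called with the block, and 0 to 1 with 1 library left out. In the further large subunit list 1 was called by DESeq2, 1 with the block, and 0 to 1 with 1 library left out. Of 391 values of 26 named genes under these settings, 21 differed in sign from the reported ones.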
